A study of Mus musculus with 8 samples.

Results

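The genes described here act around the hedgehog ligand rather than downstream of it. They are the ligand genes Ihh and Dhh, the genes of ligand lipid modification and release Hhat, Disp1, Scube1, Scube2 and Scube3, and the coreceptor genes Cdon, Boc and Gas1. These 10 genes were taken by symbol from the 43346 gene identifiers counted in each library, and all 10 were found. RNA was sequenced from notochord-derived cells (NDCs) of Shh-cre;ROSA:YFP mice, in which Cre driven from the Shh locus switches on YFP in Shh-expressing cells and keeps it on in their progeny. The comparison was between embryonic day 12.5 (E12.5, litters NDP10.2, NPD3, NPD4 and NPD9.2) and postnatal day 0 (P0, litters NPD26, NPD27, NPD28 and NPD30), each sample being a pool of embryos or pups from 1 litter, with no treatment given. The E12.5 samples were whole dissected notochords that were not sorted, whereas the P0 samples were nucleus pulposus (NP) cells sorted for YFP, so stage and isolation cannot be told apart.

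The notochord is a classical source of Sonic hedgehog, which patterns the neural tube and the sclerotome beside it. A hedgehog precursor cleaves itself and receives cholesterol, the acyltransferase Hhat adds palmitate, and the membrane protein Disp1 together with secreted Scube proteins frees the lipid-bearing ligand from the producing cell. On the receiving cell, Cdon, Boc and Gas1 bind ligand and help to present it to Ptch1, which lifts the inhibition of Smo and activates the Gli transcription factors. Of the other ligands, Ihh is known from prehypertrophic cartilage, and Dhh from Schwann cells, endothelium and the testis.

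Between 4442775 and 8904050 reads per library were counted on genes, and 3 reads, the smallest signal regarded here as visible, equal 0.337 to 0.675 CPM (reads of a gene scaled to a fixed library total) before TMM scaling. This limit covers counting error only. The notochord gene T had a mean of 584 CPM in the E12.5 litters (241.5 to 942 CPM) against 1319 CPM in those of P0 (574 to 2323 CPM). These ranges overlapped, and T did not pass the test of stage (edgeR, adjusted p = 0.117). Noto was at most 0.433 CPM in any litter. RNA of other cells was also present and moved with stage. The summed level of 9 sclerotome genes was 173.8 to 270.0 CPM at E12.5 against 14.9 to 32.6 CPM at P0, with all 9 lower at P0, and that of 10 leukocyte genes was 61.1 to 119 CPM at E12.5 against 319.9 to 3847 CPM at P0, with all 10 higher at P0. In bulk RNA, fewer cells of a type and less RNA per cell cannot be told apart.

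Stage was compared to ask which of these genes differ between the embryonic notochord and the NP at birth. Of the 10 genes, 9 were tested, of which 2 were lower at P0 (Scube1 and Scube3), 1 was higher (Scube2) and 6 did not pass (edgeR, adjusted p under 0.05). Over all genes tested 27.9% passed, 12.0% lower and 16.0% higher, so 3 of 9 is near the share of genes at large. Stages did not overlap in those same 3 genes, against 14.4% of all genes tested with every E12.5 litter above and 15.5% with every P0 litter above. The median log2 fold change of the 9 was -0.51 and that of all genes tested 0.036.

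**Figure D1:**
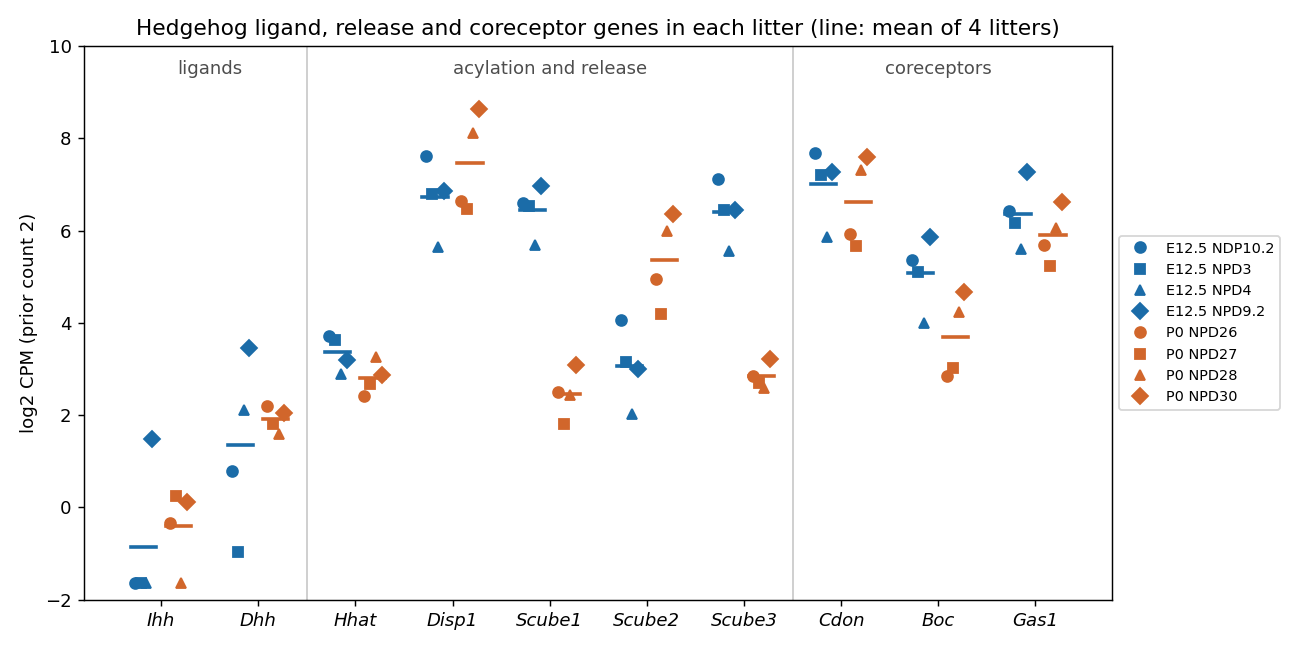
Level of each of the 10 genes in each litter, as log2 CPM with a prior count of 2, for E12.5 (blue) and P0 (orange), with a line at the mean of 4 litters. Scube1, Scube3 and Scube2 are the genes whose stages do not overlap, and Ihh lies near the bottom of the scale.

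The 3 genes that passed are the whole Scube family, whose members moved in opposite directions. Scube1 and Scube3 had lower mRNA abundance at P0, by 16.7-fold and 12.97-fold, and Scube2 had 5.37-fold higher abundance. These secreted proteins carry EGF-like repeats and a CUB domain, and Scube2 is the one best known for releasing hedgehog ligand. Scube1 (ENSMUSG00000016763.10) spans chr15:83604999-83725021 on the minus strand, Scube2 (ENSMUSG00000007279.10) chr7:109798676-109865679 on the minus strand and Scube3 (ENSMUSG00000038677.9) chr17:28142141-28174854 on the plus strand of GRCm38. Their promoter windows, from 250 bases before to 50 after the RefSeq start (RefSeq, GRCm38.p6), are shown because the 3 paralogs split by stage. Each is printed 5′ to 3′ on the strand of its gene with CG dinucleotides in capitals, at chr15:83724990-83725289 (minus), chr7:109865630-109865929 (minus) and chr17:28142059-28142358 (plus).
Scube1: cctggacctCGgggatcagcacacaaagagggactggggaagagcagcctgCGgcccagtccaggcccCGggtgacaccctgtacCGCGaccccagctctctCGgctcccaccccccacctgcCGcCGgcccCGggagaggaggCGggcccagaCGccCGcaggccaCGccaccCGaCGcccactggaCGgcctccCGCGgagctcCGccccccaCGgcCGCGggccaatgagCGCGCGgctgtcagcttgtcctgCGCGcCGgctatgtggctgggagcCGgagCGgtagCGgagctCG
Scube2: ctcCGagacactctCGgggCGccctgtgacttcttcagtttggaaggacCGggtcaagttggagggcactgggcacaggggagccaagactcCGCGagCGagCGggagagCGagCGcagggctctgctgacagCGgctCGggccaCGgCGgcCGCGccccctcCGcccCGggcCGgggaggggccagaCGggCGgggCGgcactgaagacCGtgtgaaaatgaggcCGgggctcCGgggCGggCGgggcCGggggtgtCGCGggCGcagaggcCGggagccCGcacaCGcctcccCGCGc
Scube3: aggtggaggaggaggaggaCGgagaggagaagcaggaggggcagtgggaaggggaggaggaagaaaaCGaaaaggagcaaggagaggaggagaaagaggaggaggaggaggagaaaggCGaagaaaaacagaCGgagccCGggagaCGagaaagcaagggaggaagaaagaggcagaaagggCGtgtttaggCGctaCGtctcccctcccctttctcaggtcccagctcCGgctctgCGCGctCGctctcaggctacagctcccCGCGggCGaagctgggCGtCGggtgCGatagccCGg
The windows held 32 CG dinucleotides in Scube1, 36 in Scube2 and 20 in Scube3, against a median of 7 over all 32851 promoter windows. The window of Scube2, which rose, held the most, and those of Scube1 and Scube3, which fell, held fewer. The part of CG content in the stage differences was not tested. Motifs were searched on both strands in the 10 windows of the 9 genes that had one (Disp1 has more than 1 window, and Boc none). None held GACCACCCA, a letter sequence bound by Gli factors and present in 0.253% of all windows. None held TCACACCT, bound by Brachyury and present in 1.28%. The same was true of the Foxa motif TGTTTAC, which 3.65% of all windows held. It was true of the Sox motif ACAATGG, at 3.66% of all windows, and of the TATA box, searched as TATAAA, at 13.6%. At such shares, absence from 10 windows says little about how these genes are regulated. The Cdon window, chr9:35451826-35452125, lies inside the gene, which starts at 35421128.

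Scube1 was at 96.2, 92.1, 51.4 and 125 CPM in NDP10.2, NPD3, NPD4 and NPD9.2, the E12.5 litters. In NPD26, NPD27, NPD28 and NPD30, those of P0, it was at 5.35, 3.17, 5.06 and 8.19 CPM. The ranges of the stages lay apart. The means were 91.3 ± 30.5 CPM and 5.44 ± 2.07 CPM (SD, n = 4). The log2 fold change, P0 over E12.5, was -4.06 (SE 0.37, adjusted p = 0.000106 by edgeR's quasi-likelihood test over the 15467 genes tested). Of those genes, 133 fell further than Scube1.

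In the same litters Scube3 was at 139, 87.0, 46.9 and 87.3 CPM at E12.5 against 6.92, 6.20, 5.65 and 8.94 CPM at P0. The stages did not overlap, and the P0 litters were close to each other. The means were 90.0 ± 37.7 CPM and 6.93 ± 1.44 CPM, with a log2 fold change of -3.70 (SE 0.35, adjusted p = 0.000114), and 195 of the genes tested fell further.

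Scube2 was at 16.3, 8.59, 3.75 and 7.62 CPM at E12.5 against 30.3, 17.9, 63.0 and 81.1 CPM at P0. Here every P0 litter lay above every E12.5 litter, although the highest E12.5 litter, NDP10.2, came close to the lowest P0 litter, NPD27. The means were 9.06 ± 5.25 CPM and 48.1 ± 29.1 CPM, with a log2 fold change of 2.42 (SE 0.55, adjusted p = 0.00816). All 3 Scube calls held whichever of the 8 litters was left out, and log2 fold changes then ran from -4.36 to -3.87 for Scube1, from -3.92 to -3.45 for Scube3 and from 2.01 to 2.82 for Scube2. Genes of several other cell types were also lower at P0, as Scube1 and Scube3 were. Beside the 9 sclerotome genes these were 5 of 8 Schwann and neural crest genes, such as Sox10 (log2 fold change -3.64), 2 of 7 skeletal muscle genes, Myod1 (-5.22) and Myog (-5.05), and 2 of 9 endothelial genes. All 3 primitive globin genes were lower too, with sums of 8120 to 32815 CPM in the unsorted E12.5 samples and 2.12 to 7.07 CPM in the sorted P0 cells. The part of these cells in the falls was not tested. The leukocyte sum was 3005, 3576, 3847 and 319.9 CPM in NPD26, NPD27, NPD28 and NPD30. Scube2 was highest in NPD30, where that sum was lowest. In NPD28, where the sum was highest, Scube2 lay above NPD26 and NPD27. In a list of 9 notochord genes the sum followed the order of Scube2 across the P0 litters, at 3473, 2093, 4047 and 7447 CPM, but not the stages, since the E12.5 sums of 3686, 3275, 1698 and 1900 CPM overlapped those of P0. Of that list Krt19 and Cd24a were higher at P0, Foxa1 was lower, 5 did not pass and Noto was not tested. Of 5 annulus and tendon genes Fmod was higher (456, 403, 1029 and 1415 CPM in the P0 litters), Scx was lower, Mkx and Thbs4 did not pass and Tnmd was not tested. The part of these cells in the Scube2 level was not tested.

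The make-up of Scube mRNA differed between the stages, whereas the ranges of its sum overlapped. In CPM per kilobase of exon, the scale on which different genes can be compared, the 3 genes summed to 21.6 ± 7.59 at E12.5 (range 11.4 to 29.4) and 12.9 ± 7.28 at P0 (5.33 to 21.4). Scube1 and Scube3 made up 43.8% ± 7.83 and 46.6% ± 5.34 of that sum at E12.5, and Scube2 9.61% ± 2.66. At P0 Scube2 made up 87.4% ± 5.71, between 80.8% and 92.9% in the 4 litters. The log2 ratio of Scube1 to Scube2 within a library went from 3.39 ± 0.62 to -2.91 ± 0.59, a difference of -6.30 (two-sided exact permutation test, p = 0.0286, the smallest that 4 against 4 litters allow, 0.0381 adjusted over the 8 gene pairs compared). That of Scube2 to Scube3 rose by 5.87 (the same exact p of 0.0286, adjusted 0.0381). The stages did not overlap in any of these genes, and Scube2 moved against the others. Both of these exact permutation p-values were thus fixed in advance and add no further evidence. For Scube1 against Scube3 the ratio differed by -0.43 (exact permutation p = 0.171, adjusted 0.196), with stage means of 0.05 ± 0.43 and -0.38 ± 0.36.

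**Figure D2:**
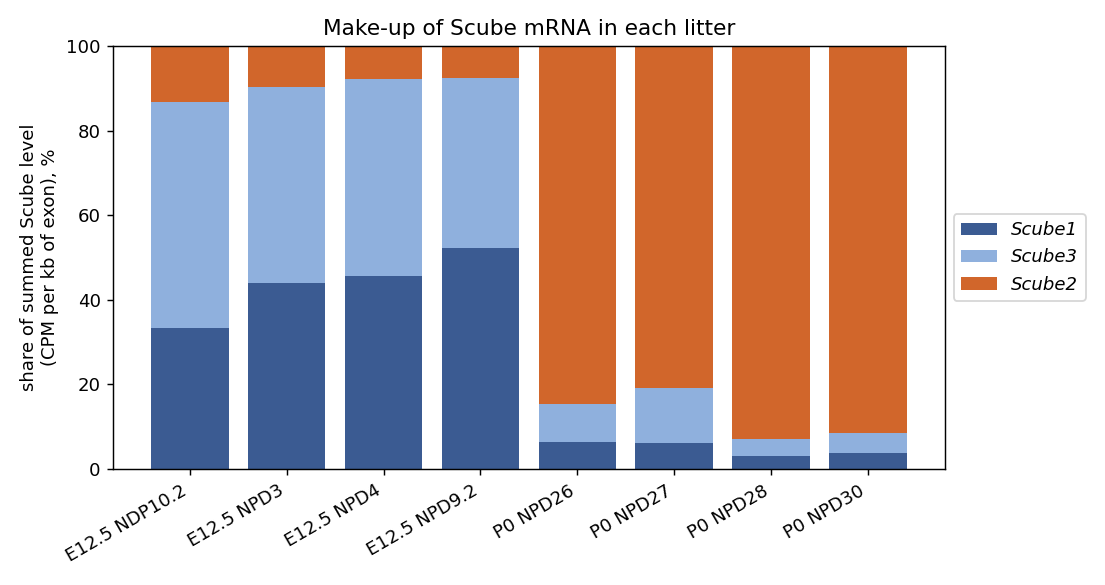
Share of the summed level of Scube1, Scube2 and Scube3 (CPM per kilobase of exon, in percent) in each of the 8 litters. Scube2 (orange) takes 7.503% to 13.3% in the E12.5 litters and 80.8% to 92.9% in the P0 litters.

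Neither of the other hedgehog ligand genes was abundant at either stage. Ihh (ENSMUSG00000006538.10, chr1:74945315-74951672, minus strand) had 0, 0, 0 and 10 reads in NDP10.2, NPD3, NPD4 and NPD9.2 at E12.5, and at P0 it had 3, 6, 0 and 5 reads in NPD26, NPD27, NPD28 and NPD30. It did not pass the filter on low counts and was not tested. Only NPD9.2, at 2.46 CPM, and the P0 litters NPD27 and NPD30, at 0.865 and 0.758 CPM, had more than 3 reads, so a stage difference was not detectable at this depth. In the same libraries Col10a1, a gene of hypertrophic cartilage, was at 1.57 to 3.77 CPM at E12.5 against 16.8 to 31.4 CPM at P0, and of 10 genes of prehypertrophic and hypertrophic chondrocytes 6 were higher at P0. Of these 6, Spp1, Ibsp, Mmp13 and Alpl are also known from osteoblasts, while Pth1r, Mef2c, Runx2 and Runx3 did not pass. In a list of 7 osteoblast genes 5 were higher at P0, with sums of 238 to 1286 CPM and 2908 to 11603 CPM. The part of these cells in the Ihh reads was not tested.

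Dhh (ENSMUSG00000023000.4, chr15:98891152-98898540, minus strand) was at 1.42, 0.195, 3.99 and 10.6 CPM in the 4 E12.5 litters and at 4.25, 3.17, 2.71 and 3.79 CPM in the 4 P0 litters, in the order above. The E12.5 litters spanned 54.2-fold and enclosed the P0 litters, which spanned 1.57-fold. The log2 fold change was -0.20 (95% interval -1.97 to 1.56, adjusted p = 0.878 by edgeR), and it was 0.81 (adjusted p = 0.498) without NPD9.2. Schwann and neural crest genes, 8 in all, summed to 493, 449.8, 947 and 672 CPM in the same E12.5 litters and to 921, 987, 332.5 and 474.5 CPM in the P0 litters, with 5 lower and 1 higher at P0. In 9 endothelial genes the sum was 131, 90.7, 188 and 142 CPM in the E12.5 litters and 37.3 to 136 CPM at P0, with 2 lower. NPD3, the lowest E12.5 litter for Dhh, was lowest for both lists, but NPD9.2, the highest for Dhh, lay below NPD4 in both. The part of these cells in the Dhh level was not tested. Over 12.4% of its exon length Dhh overlaps Rhebl1 on the same strand, where reads may have been set aside as ambiguous. A further overlap, over 25.2%, is with Gm49442 on the other strand, and without a stated strand setting reads of such partners cannot be told apart.

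Shh itself differed by -7.14 on the log2 scale (adjusted p = 0.000742), with 1, 27, 67 and 78 reads left in NPD26, NPD27, NPD28 and NPD30. Dhh had 27 reads in NPD26, more than Shh, and 22, 23 and 25 reads in the other P0 litters, fewer than Shh. Per kilobase of exon, Shh made up at least 98.2% of the summed level of the 3 ligand genes in the E12.5 litters. At P0 the share of Dhh was 82.1%, 30.4%, 18.2% and 16.4% in the 4 litters and that of Shh was 4.70%, 57.6%, 81.8% and 78.9%. In NPD26 the P0 value rests on 27 Dhh reads among 31 ligand reads, or 87.1% of reads (95% Clopper-Pearson interval 70.2% to 96.4%, for counting error only, as amplified reads of 1 litter are not independent molecules). The sum itself was 148.5 to 473 CPM per kilobase at E12.5 and 1.18 to 5.26 CPM per kilobase at P0. The log2 ratio of Dhh to Shh differed between stages by 8.19 and that of Ihh to Shh by 8.09 (exact permutation p = 0.0286 and adjusted 0.0381 for each). Both differences came with the fall of Shh, whose stages did not overlap, so these p-values add no evidence about Dhh or Ihh. The ratios used a prior count of 2. The Ihh value, with no read in 3 E12.5 litters, depends on that prior.

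Hhat and Disp1, which act in the producing cell, did not pass the test. Hhat (ENSMUSG00000037375.12, chr1:192496711-192771223, minus strand) was at 12.7, 12.1, 7.13 and 8.85 CPM at E12.5 against 5.03, 6.06, 9.30 and 6.97 CPM at P0. The stages overlapped, and the log2 fold change was -0.57 (95% interval -1.34 to 0.20, adjusted p = 0.257). Disp1 (ENSMUSG00000030768.8, chr1:183086266-183221522, minus strand) was at 195, 109.7, 49.6 and 114.8 CPM at E12.5 against 99.7, 88.4, 276 and 396 CPM at P0. The P0 litters parted into NPD26 and NPD27, which lay within the E12.5 range, and NPD28 and NPD30, which lay above it. Its log2 fold change was 0.88 (95% interval -0.32 to 2.07, adjusted p = 0.259), an interval that holds both 0 and a 4-fold rise. Per kilobase of exon Disp1 was at 22.5 ± 11.5 CPM at E12.5 against 41.2 ± 28.3 CPM at P0, the highest mean of the 10 genes at P0.

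None of the 3 coreceptor genes passed the test, and Boc came closest. Boc (ENSMUSG00000022687.7, chr16:44485049-44558897, minus strand) was at 40.8, 34.1, 15.6 and 58.0 CPM at E12.5 against 6.92, 7.79, 18.6 and 25.2 CPM at P0. The 3 highest values were E12.5 litters, and NPD4 lay among the P0 litters. The means were 37.1 ± 17.5 CPM and 14.6 ± 8.81 CPM, with a log2 fold change of -1.34 (95% interval -2.43 to -0.25, unadjusted p = 0.0209, adjusted p = 0.0665). It passed with DESeq2 (adjusted p = 0.0283), with upper quartile scaling (0.0447), with no filter on low counts (0.0467), without NPD4 (0.0236) and without NPD30 (0.0181), and over all the alternatives its adjusted p ran from 0.0181 to 0.394.

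Cdon, like Boc a membrane protein with immunoglobulin and fibronectin repeats, lies at chr9:35421128-35507652 on the plus strand (ENSMUSG00000038119.10). It was at 206, 147, 58.0 and 155 CPM at E12.5 against 60.7, 50.2, 158.9 and 192 CPM at P0. The ranges of the stages almost coincided, and the log2 fold change was -0.29 (95% interval -1.38 to 0.80, adjusted p = 0.702). Gas1, a lipid-anchored protein of a single exon (ENSMUSG00000052957.7, chr13:60174405-60177365, minus strand), was at 85.6, 71.2, 48.2 and 154.9 CPM at E12.5 against 50.9, 37.2, 66.2 and 97.5 CPM at P0. Its stages overlapped too, with a log2 fold change of -0.51 (95% interval -1.37 to 0.34, adjusted p = 0.361). Over 19.9% of its exon length Gas1 overlaps Gm48488 on the other strand. The signs of Cdon and Gas1 turned, to 0.14 and 0.042, when NDP10.2 and NPD9.2 were both left out.

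Compared within each library, Boc fell relative to both other coreceptor genes. The log2 ratio of Cdon to Boc was 1.93 ± 0.39 at E12.5 and 2.93 ± 0.21 at P0, a difference of 1.0 (exact permutation p = 0.0286, adjusted 0.0381). That of Boc to Gas1 was -1.28 ± 0.27 and -2.20 ± 0.45, a difference of -0.91 (exact permutation p = 0.0286, adjusted 0.0381). That of Cdon to Gas1 differed by 0.088 (exact permutation p = 0.8286), less than its SDs of 0.61 and 0.47. Per kilobase of exon Boc made up 14.3% ± 1.12 of the 3 at E12.5 and 8.004% ± 1.46 at P0, and Gas1 was the largest share at both stages, 53.2% ± 8.44 and 56.1% ± 7.83. Leaving out NDP10.2, NPD3 or NPD26 raised the adjusted p of the Boc to Gas1 ratio to 0.0653, 0.0762 and 0.0762. These 8 comparisons of pairs, the Scube and ligand pairs included, are the only ones made.

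A list of 49 other hedgehog pathway genes was examined by role. Of these, 44 were tested, 20 were lower and 3 higher at P0, with a median log2 fold change of -0.992. All 8 core genes (Shh, the receptor gene Ptch1, the transducer gene Smo, the antagonist gene Hhip, the transcription factor genes Gli1, Gli2 and Gli3, and Sufu) were lower, as were 10 of the 11 response genes tested, such as Foxf1 (log2 fold change -6.18) and Pax1 (-5.29), both expressed in tissue that receives the signal. Of the 10, Pax1, Pax9, Nkx3-2 and Foxc2 are also 4 of the 9 sclerotome genes above, and whether the list moved with the content of such cells was not tested. Of 17 genes for ciliary and cytoplasmic regulators 14 did not pass. Kif7, a ciliary kinesin gene, was lower (log2 fold change -1.22, adjusted p = 0.0355), and Spop, which encodes an adaptor for Gli degradation, and Grk2, a kinase gene, were higher (0.67, adjusted p = 0.0348, and 2.30, adjusted p = 0.00189). Of 8 tested genes for other steps of ligand processing and reception, the glypican gene Gpc3 was lower (-2.27, adjusted p = 0.00367), the sheddase gene Adam17 higher (1.37, adjusted p = 0.00728) and 6 did not pass. Among the P0 litters Grk2 and Adam17 were lowest in NPD30, at 96.7 and 56.2 CPM, the litter with the lowest leukocyte sum. In NPD28, with the highest leukocyte sum, Grk2 was highest, at 387 CPM, but Adam17, at 101 CPM, lay below NPD26 and NPD27. Spop was lowest in NPD26. The part of leukocytes in these 3 rises was not tested. Whether the 10 genes differ from these lists was not tested.

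**Figure D3:**
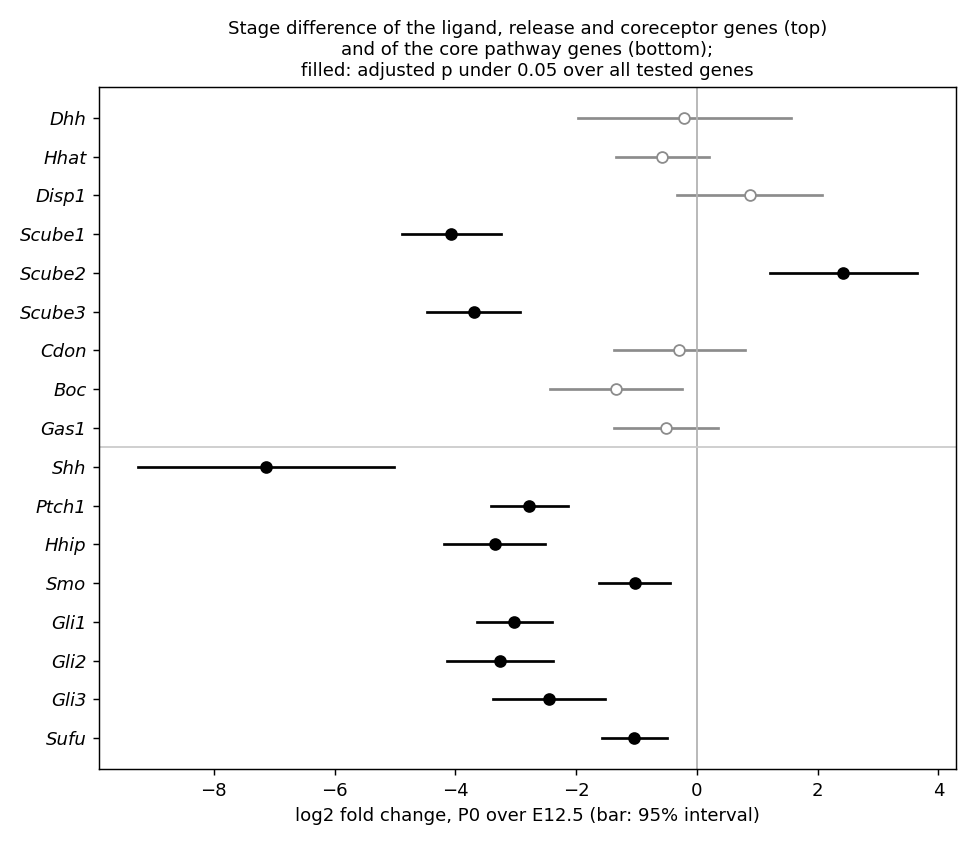
Log2 fold change, P0 over E12.5, with its 95% interval for the 9 tested ligand, release and coreceptor genes and for 8 core pathway genes. Filled points passed an adjusted p of 0.05. Core genes all lie left of 0, from -7.14 for Shh to -1.03 for Smo, whereas Scube2, at 2.42, is the one filled point to the right.

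On the scale of CPM per kilobase of exon, the order at E12.5 was Gas1 (30.4 ± 15.5), Disp1 (22.5 ± 11.5), Cdon (18.3 ± 7.96), Scube3 (10.18 ± 4.27), Scube1 (9.29 ± 3.10), Boc (8.35 ± 3.94), Scube2 (2.18 ± 1.26), Hhat (1.12 ± 0.29), Dhh (0.919 ± 1.05) and Ihh (0.202 ± 0.403). The ranges of every pair of neighbours in this order overlapped. At P0 the order was Disp1 (41.2 ± 28.3), Gas1 (21.3 ± 8.74), Cdon (14.97 ± 9.18), Scube2 (11.6 ± 7.01), Boc (3.28 ± 1.98), Dhh (0.791 ± 0.154), Scube3 (0.783 ± 0.163), Hhat (0.748 ± 0.199), Scube1 (0.554 ± 0.210) and Ihh (0.172 ± 0.127). Here the range of Boc lay above that of Dhh and the range of Scube1 above that of Ihh, and the other neighbours overlapped. Scube1 and Scube3 thus moved from the level of Boc to that of Hhat.

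Within a stage the genes tended to be high or low in the same litters. At E12.5, NPD4 was the lowest litter for 8 of the 9 tested genes, all but Dhh, and it was the lowest for 29.6% of all genes tested. At P0, NPD30 was the highest for 7 of the 9, all but Dhh and Hhat, against 26.6% of all genes. NPD28 and NPD30 both lay above NPD26 and NPD27 for Boc, Cdon, Disp1, Gas1, Hhat and Scube2, 6 of the 9, against 23.8% of all genes. No other such split of the P0 litters was counted. This one was visible in the values of these same genes, so its share is a description only. The notochord gene T was also lowest in NPD4 among the E12.5 litters, at 241.5 CPM against 362 to 942 CPM, and highest in NPD30 among the P0 litters, at 2323 CPM against 574 to 1372 CPM. The sum of the 9 notochord genes had the same extremes. Of that list Cd24a differed, being lowest in NPD9.2, at 457 CPM against 703 CPM in NPD4. In a list of 10 neural tube genes the sum was 1586 CPM in NPD4, against 85.1 to 142 CPM in the other E12.5 litters. It rested mostly on the neuronal genes Tubb3, Elavl3 and Stmn2, with Tubb3 at 576 CPM against 23.2 to 43.5 CPM. Other genes of the list were split. Pax6, at 1.57 CPM against 3.51 to 4.95 CPM, and Dbx1, at 0 CPM, were lowest in NPD4. Sox2, at 27.0 CPM against 7.81 to 17.9 CPM, and Nkx2-2, at 1.57 CPM against 0.585 to 1.42 CPM, were highest there. Sox1, Nkx6-1 and Olig2 were neither highest nor lowest in NPD4. The part of such cells in these litter differences was not tested. Dhh departed most from the others, with deviations from its E12.5 mean, on the log2 scale, of -2.31 in NPD3 and 2.10 in NPD9.2.

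**Figure D4:**
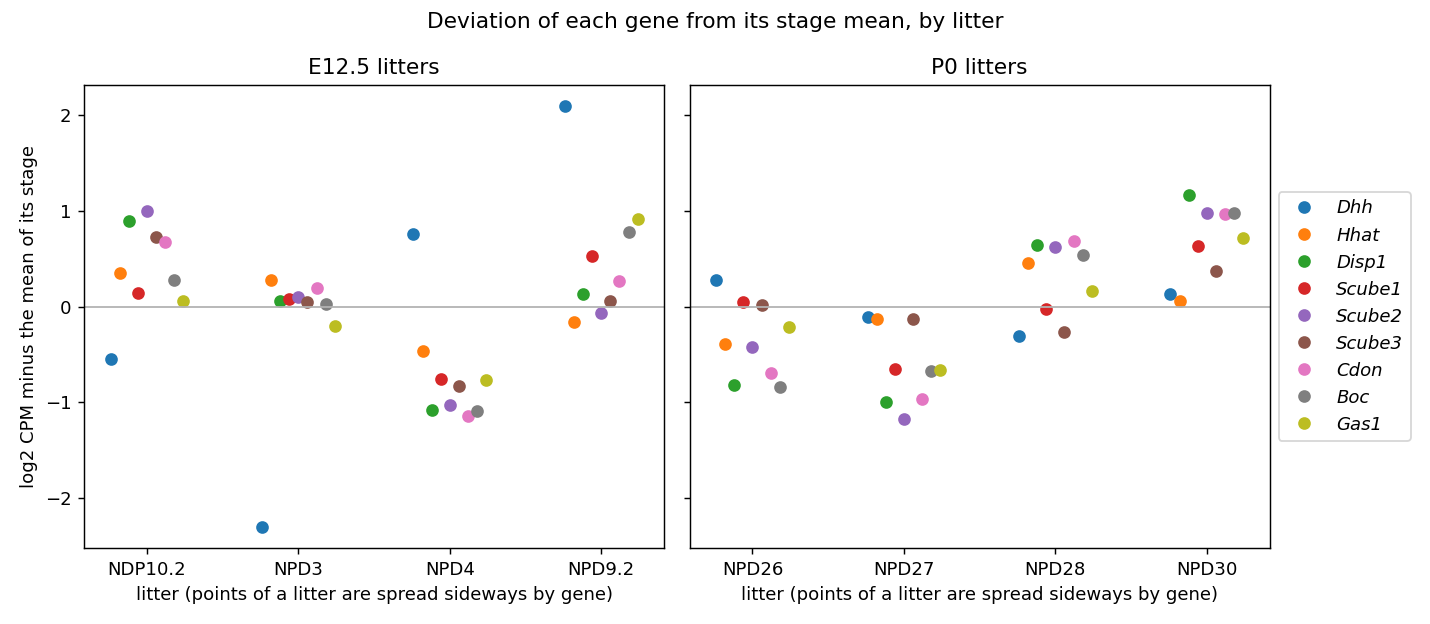
Deviation of log2 CPM from the mean of its stage for the 9 tested genes, by litter (E12.5 left, P0 right). All genes but Dhh lie below 0 in NPD4, and all 9 lie above 0 in NPD30.

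Among 12680 other genes, with low genes left out, the profile nearest to each gene over the 8 libraries was found by the root mean square difference of centred log2 CPM. For Scube3 it was Hmcn1, which encodes the matrix protein hemicentin 1, at 0.18, and for Scube1 it was Amot, which encodes angiomotin, at 0.29. Hmcn1 had means of 145 and 12.1 CPM at the 2 stages, and Amot 103 and 5.85 CPM. For Scube2 it was Lzts3 at 0.24 (16.4 and 75.2 CPM). The nearest profile was Col16a1, a collagen gene, for Disp1 (0.21), Creb3l2, a transcription factor gene, for Cdon (0.20), Scarf2, a scavenger receptor gene, for Boc (0.18), Wnt4, a Wnt ligand gene, for Gas1 (0.19) and Ganab, a glucosidase subunit gene, for Hhat (0.11). Many genes share the stage difference, so these distances are a description of 8 libraries only.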

How the data were processed

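Libraries were made with the TotalScript kit from RNA of 4 E12.5 and 4 P0 litters. The authors used STAR (build GRCm38) and htseq-count (Gencode M4) and deposited unnormalized counts, 1 whole number per gene and library. The strand setting is not given in the sources used here. Rows that name no gene were left out, so that 22.6% to 34.8% of all reads were used and 7.07% to 17.5% were ambiguous. The E12.5 litters NDP10.2 and NPD9.2 stood apart, with 22.6% and 24.6% used and 16.3% and 17.5% ambiguous. In the other libraries 30.9% to 34.8% were used and 7.07% to 11.6% were ambiguous. Of 43346 identifiers, 42462 matched a symbol. Positions and exon lengths are those of Gencode M21, also on GRCm38, and promoter sequences from RefSeq.

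The effect of stage was estimated by edgeR 4.0.16 under R 4.3.3 (TMM, filterByExpr with a minimum count of 10 and total of 15, robust quasi-likelihood F-test, Benjamini-Hochberg adjustment over the 15467 genes kept), and an adjusted p under 0.05 made a call. The 95% interval and standard error come from the F statistic. CPM uses TMM library sizes, and log2 CPM a prior count of 2. Ratios of genes were compared by exact permutation over 70 splits. DESeq2 1.42.0 and limma 3.58.1 served for alternatives. On simulated counts (15069 genes), edgeR recovered 81% of genes changed by 2 on the log2 scale and 6% of those changed by 1. Of its calls there, 3.33% were unchanged genes. These shares describe the simulation only, and recovery in the measured counts was not tested. Alternatives changed the tool, scaling, low-count filter, dispersion estimate, prior count or litters used, and the one that left out NPD30 with NDP10.2 and NPD9.2 was chosen after seeing the data.

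The genes, the pathway and marker lists and the gene pairs were chosen with earlier results of these data known, and 1 further pathway gene is not reported here. Named are all 10 genes, core pathway genes, the genes of other lists that passed, and the nearest profile of each gene with a mean log2 CPM of at least 2. Litters of a stage differed by more than counting noise (chi-square per degree of freedom 14.1 to 103.7), and each was counted as a separate replicate.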

Additional observations from a re-analysis of the deposited data

Results flagged for a closer look

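Ihh stood apart in 1 E12.5 litter. NPD9.2 was at 2.46 CPM, from 10 reads, while the other E12.5 litters had no read. It was the 1 set of 4 litters picked out by Dixon's criterion among the 20 examined (10 genes at 2 stages). With 3 litters at 0, any read in the fourth would have met the criterion, so the usual chance rate of about 1 in 20 does not apply and the value is given as a description.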

How the results depend on the processing

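Scube1 and Scube3 stayed lower and Scube2 higher at P0, and passed the test whichever of the 8 litters was left out and in all 10 other alternatives. The number of the 10 genes called lower was 2 to 3 and the number called higher was 1 throughout, the third being Boc. The median log2 fold change of all genes moved by -0.15 under upper quartile scaling, and by 0.41 with no filter on low counts. NDP10.2 and NPD9.2, whose labels share an ending, were also left out together. This lowered the count of all genes called from 4321 to 2581 and that of other pathway genes called higher from 3 to 1. With those litters gone, none of the 8 gene pairs (0 against 6) could pass, because 2 against 4 litters allow no exact p below 0.0667. Over the fits without 1 litter the count of all genes called was 3612 to 4529, and that of pairs 5 to 6. Signs turned only in genes and pairs that were never called. Dhh was at 0.69 with limma-voom, 0.81 without NPD9.2, 0.64 without NDP10.2 and NPD9.2, and 0.61 with NPD30 also left out, an alternative added once the data had been seen. Its range without 1 litter was -0.65 to 0.81. Cdon was at 0.14 and Gas1 at 0.042 without NDP10.2 and NPD9.2. The log2 ratio of Cdon to Gas1 differed by -0.13 to 0.29 over the fits without 1 litter. The cause of these turns was not tested. With at least 10 counts in every sample 16 other pathway genes were called lower instead of 20, among fewer genes tested. No paired analysis was possible because the labels give no numbers shared between stages. Depth limits Ihh, at 6 reads or fewer in all but 1 litter, and the P0 values of Dhh and Shh.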
